A study of Mus musculus with 6 samples.

Results

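The 10 genes described here mark macrophages and the antigen-presenting machinery within mouse pancreatic islets, the clusters of endocrine cells in the pancreas. They were taken by symbol from a deposited table of 40840 genes: the complement genes C1qa, C1qb and C1qc, the macrophage genes Cd68, Adgre1 and Csf1r, and the MHC class II genes Cd74, H2-Aa, H2-Ab1 and H2-Eb1. All 10 were in the table and all 10 passed the filter on low counts, which 16240 genes passed. RNA was sequenced from 3 islet libraries labelled KO and 3 labelled WT, both on a C57BL/6J background. The series concerns IGF2R, the cation-independent mannose 6-phosphate receptor, in beta cells. The genotype is labelled only KO or WT: no allele, Cre line, age or treatment is stated, nor whether libraries of the same genotype came from different animals. P-values therefore cover the spread from library to library, part or all of which may be technical.

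Islets hold a resident population of macrophages that lie close to the capillaries, sample material released by the endocrine cells and carry MHC class II on their surface. C1q is the recognition molecule of the classical complement pathway. It is built from A, B and C chains that combine in equal amounts, and macrophages and dendritic cells are its main source. MHC class II molecules are pairs of an alpha and a beta chain. They assemble on the invariant chain, encoded by Cd74, and then present peptides from the endosomal pathway to CD4+ T cells. Their genes are switched on together by the coactivator CIITA, which binds factors sitting on a conserved set of promoter elements, the X1, X2 and Y boxes.

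The shared promoter elements are shown first, for H2-Aa and H2-Eb1, the class II genes with a matched promoter window. Their log2 fold changes between genotypes were 0.20 and 0.24. Those of Cd74 and H2-Ab1, which had no window, were 0.22 and 0.17. A link between promoter letters and these values was not tested. RefSeq promoter windows on GRCm38.p6, from 250 bases before to 50 after the start of the gene, matched 5 of the 10 genes. Each is printed 5′ to 3′ on the strand of its gene. Capitals mark, from left to right, the letters of the X1, X2 and Y boxes. The H2-Aa window is chr17:34287774-34288073 on the minus strand, and the H2-Eb1 window is chr17:34305617-34305916 on the plus strand.
H2-Aa: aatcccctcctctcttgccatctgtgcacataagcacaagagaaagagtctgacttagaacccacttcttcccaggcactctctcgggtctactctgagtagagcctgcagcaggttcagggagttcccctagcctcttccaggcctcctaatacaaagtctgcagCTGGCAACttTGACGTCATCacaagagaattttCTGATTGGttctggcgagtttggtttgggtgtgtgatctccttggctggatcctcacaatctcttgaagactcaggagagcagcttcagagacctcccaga
H2-Eb1: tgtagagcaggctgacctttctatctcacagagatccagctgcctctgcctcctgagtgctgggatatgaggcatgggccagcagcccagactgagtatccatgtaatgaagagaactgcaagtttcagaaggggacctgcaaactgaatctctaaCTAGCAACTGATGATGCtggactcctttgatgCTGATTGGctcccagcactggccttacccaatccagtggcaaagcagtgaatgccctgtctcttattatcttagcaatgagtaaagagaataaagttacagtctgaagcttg
Both windows hold the Y box letters CTGATTGG, which begin 51 bases before the start in H2-Aa and 62 bases before it in H2-Eb1. On either strand those letters occur in 4.10% of the 32851 promoter windows. The X1 and X2 letters differ between the genes and were read from these windows, so finding them there is no result. They are CTGGCAAC and TGACGTCATC in H2-Aa, found on either strand in 1.31% and 0.262% of all windows. In H2-Eb1 they are CTAGCAAC and TGATGATGC, found in 1.32% and 0.253% of windows. The first base of X1 lies 33 bases before the first base of the Y box in H2-Aa and 32 bases before it in H2-Eb1. The X2 letters of H2-Eb1 were chosen to begin directly after X1, so both form 1 run of capitals. Between the last X2 base and the Y box lie 15 bases in H2-Eb1 and 13 in H2-Aa. The X2 letters as marked are therefore not aligned between the genes, and the limits of X2 in H2-Eb1 are uncertain. No marked motif overlaps another.

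The windows of C1qb and C1qc are shown because these neighbouring genes of 1 cluster had the highest and the lowest log2 fold change of the 10 (0.33 and -0.03). The C1qb window is chr4:136886151-136886450 and the C1qc window is chr4:136892865-136893164, both on the minus strand. Capitals mark AGGAAGT read on the opposite strand (ACTTCCT), letters of the kind bound by ETS factors such as PU.1, a factor of myeloid cells.
C1qb: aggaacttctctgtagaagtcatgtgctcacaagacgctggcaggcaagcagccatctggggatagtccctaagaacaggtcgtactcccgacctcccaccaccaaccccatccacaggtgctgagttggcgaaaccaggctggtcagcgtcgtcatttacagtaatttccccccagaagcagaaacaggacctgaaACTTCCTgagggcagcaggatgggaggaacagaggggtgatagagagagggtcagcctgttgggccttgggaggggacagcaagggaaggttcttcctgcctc
C1qc: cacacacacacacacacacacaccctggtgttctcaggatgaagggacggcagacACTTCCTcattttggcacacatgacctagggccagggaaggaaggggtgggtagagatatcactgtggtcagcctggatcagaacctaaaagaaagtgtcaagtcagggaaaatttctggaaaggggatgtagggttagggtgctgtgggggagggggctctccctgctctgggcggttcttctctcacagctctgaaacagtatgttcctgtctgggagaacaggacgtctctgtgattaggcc
The match ends 47 bases before the RefSeq start of C1qb and 189 bases before that of C1qc. In GENCODE M21, C1qc begins farther upstream, at 136893065, and C1qb farther downstream, at 136886187. Counted from those starts, the match lies nearer to C1qc and farther from C1qb, so these distances depend on the annotation. On either strand, 9.35% of all promoter windows hold these letters. The windows of Cd68 (not printed here), H2-Aa and H2-Eb1 do not hold them on either strand. A match of letters is not a binding site.

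On GRCm38, the 3 C1q genes lie on chromosome 4 within 18675 bases, all on the minus strand: C1qb from 136880129 to 136886187, C1qc from 136889804 to 136893065 and C1qa from 136895917 to 136898803. The class II chain genes lie on chromosome 17 within 58986 bases: H2-Ab1 from 34257689 to 34269419, H2-Aa from 34282744 to 34287823 and H2-Eb1 from 34305867 to 34316674. Adgre1 is also on chromosome 17, from 57358691 to 57483527. Cd68 is on chromosome 11, from 69664213 to 69666153. Cd74 (60803848 to 60812652) and Csf1r (61100598 to 61132149) are both on chromosome 18. The counts are sums over whole genes. Exons of Csf1r share 873 bases with those of Hmgxb3 on the opposite strand, and the strand setting of the counting is not given in the sources used here, so some Csf1r reads could belong to Hmgxb3. The other 9 genes share no exonic base with a gene on the opposite strand in GENCODE M21, and Cd74 shares 12 bases with Mir5107 on its own strand.

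Total counts were 16689319 to 18956235 in KO and 16943764 to 18757633 in WT libraries. Igf2r, the gene the series is about, stood at 49.3, 48.1 and 48.4 CPM (reads of a gene scaled to a common library size, with TMM factors that balance library composition) in KO libraries 1 to 3, against 94.98, 128 and 115 CPM in WT libraries 1 to 3. Its log2 fold change was -1.21 (SE 0.0946, edgeR quasi-likelihood adjusted p 0.00261). The libraries also differed in transcripts of exocrine tissue. A list of 30 genes of acinar cells, the digestive-enzyme cells around islets, took 0.105%, 0.270% and 0.0962% of counts in KO libraries and 1.73%, 1.83% and 0.299% in WT libraries. WT libraries 1 and 2 thus stood apart from the other 4. WT library 1 also had the most counts of several B cell transcripts, described beside the class II genes.

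The study compared KO with WT islets for genes expressed differently. Most of the 10 genes had slightly higher values in KO, by 9.50% to 25.8% for 8 of them, but none passed the test over all genes. Log2 fold changes were above 0 for 9 of the 10, against 50.0% of all genes tested, with a median of 0.19 beside a median of 5.34e-05 over all genes. edgeR called 0 of the 10 at an adjusted p (Benjamini-Hochberg, over all genes tested) under 0.05, against 0.0123% of all genes tested (2 of 16240). At an unadjusted p under 0.05, 6 of the 10 were higher in KO, against 5.19% of all genes, and 0 of the 10 were lower, against 5.80%. The 6 were C1qa, C1qb and the 4 class II genes. With the acinar level as a covariate that count was 0 (442 of 16240 genes in either direction), and against WT library 3 alone it was also 0 (491 of 16929). It was 4 without WT library 1 (1143 of 16372 genes in either direction), 4 without WT library 2 (1528 of 16563) and 6 without WT library 3 (2385 of 16489). It was 5 without KO library 1 (1961 of 16524), 5 without KO library 2 (920 of 16562) and 5 without KO library 3 (1394 of 16553). With the number in the column name as a block, edgeR called 30 genes (0.185% of those tested) and still 0 of the 10, and 5 of the 10 were higher in KO at an unadjusted p under 0.05, against 6.85% of all genes. C1qa was the gene lost. All 3 KO libraries lay above all 3 WT libraries for 5 of the 10, against 8.02% of all genes: C1qb, Adgre1, Cd74, H2-Ab1 and H2-Eb1. For 0 of the 10 all KO libraries lay below all WT libraries, against 7.69%. The lowest of the 6 values was in WT library 2 for 5 of the 10, against 18.7% of all genes. DESeq2 called 1 of the 10, Cd74 (adjusted p 0.0220), where it called 2.28% of the 2894 genes to which it gave an adjusted p. Of the 10, only C1qa (DESeq2 adjusted p 0.176), Cd74 and H2-Ab1 (0.174) were given an adjusted p by it. limma-voom called 0 of the 10, against 0.00616% of all genes. In bulk islet RNA, more cells of a type and more RNA per cell cannot be told apart.

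**Figure D1:**
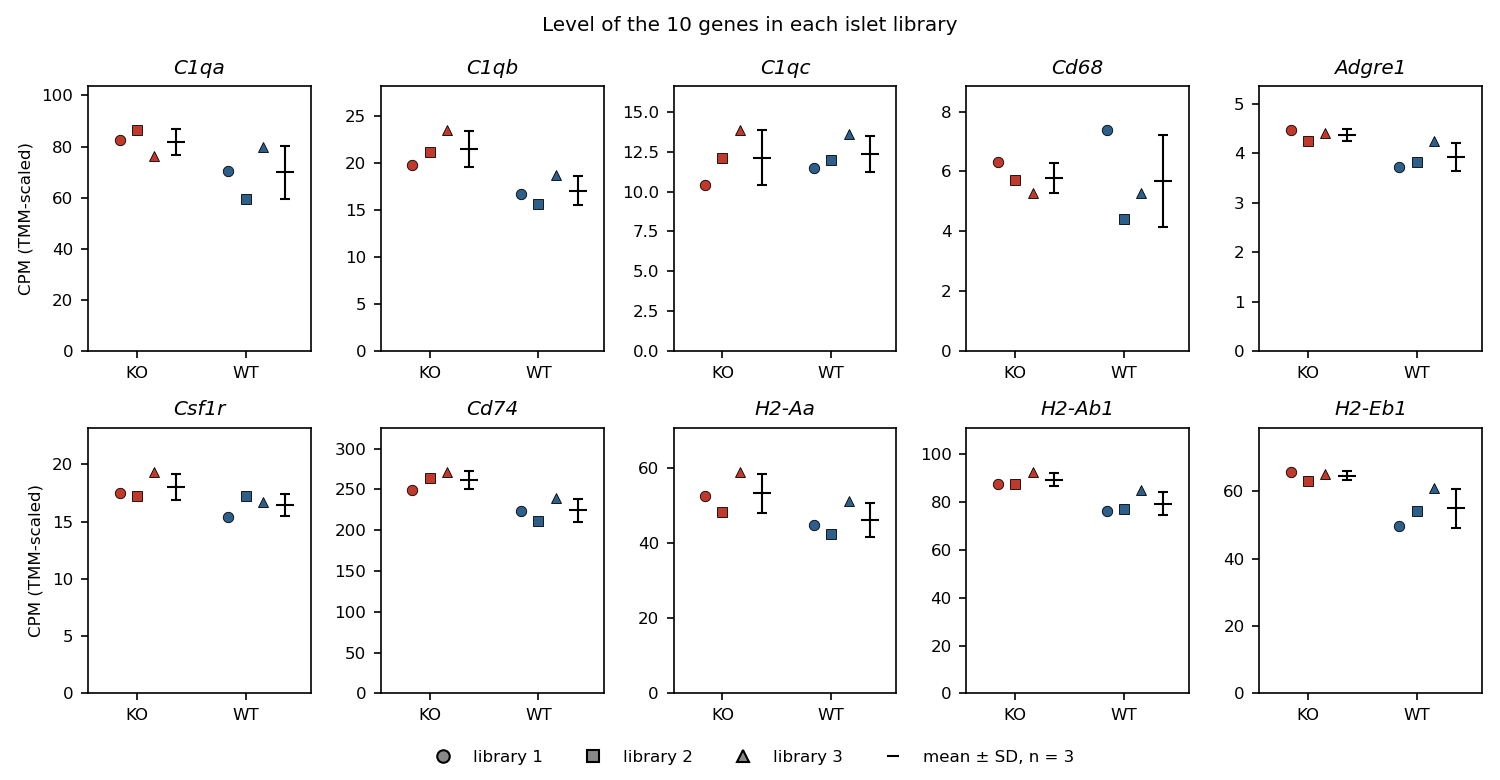
CPM (TMM-scaled, y axes from 0) of each of the 10 genes in KO libraries (red, left) and WT libraries (blue, right). Symbols give the library number and bars the mean ± SD (n = 3). The 3 KO points lie above the 3 WT points for C1qb, Adgre1, Cd74, H2-Ab1 and H2-Eb1, and WT library 3 is the WT library with the highest value for 8 of the 10 genes.

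C1qa and C1qb had higher values in KO and C1qc did not, although none passed the test. C1qb, the B chain, stood at 19.8, 21.2 and 23.5 CPM in KO libraries 1 to 3, against 16.8, 15.7 and 18.7 CPM in WT libraries 1 to 3. Its groups did not overlap, with KO library 1 just above WT library 3. Means were 21.5 ± 1.88 CPM in KO and 17.05 ± 1.54 CPM in WT (SD, n = 3), and the log2 fold change was 0.33 (95% confidence interval 0.14 to 0.53, SE 0.0938, edgeR adjusted p 0.270). C1qa, the A chain, stood at 82.5, 86.4 and 76.2 CPM in KO libraries, against 70.5, 59.4 and 79.8 CPM in WT libraries. WT library 3 lay above KO library 3 here, so the groups overlapped, and the log2 fold change was 0.22 (interval 0.01 to 0.44, SE 0.0964, edgeR adjusted p 0.443). C1qc, the C chain, was at 10.4, 12.1 and 13.8 CPM in KO libraries, against 11.5, 11.97 and 13.6 CPM in WT libraries. Its lowest and highest values were both in KO, for an estimate of -0.03 on the log2 scale (interval -0.27 to 0.21, SE 0.114, edgeR adjusted p 0.944).

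The balance of C chain to B chain counts differed between the groups without overlap. C1qc counts divided by C1qb counts gave 0.527, 0.570 and 0.589 in KO libraries, against 0.684, 0.764 and 0.726 in WT libraries. The means were 0.562 ± 0.0319 in KO and 0.725 ± 0.0404 in WT (SD, n = 3). This ratio is given as a description, since it was singled out among 9 ratios between the genes after their values were seen. C1qa over C1qb, by contrast, was 4.18, 4.08 and 3.25 in KO libraries and 4.20, 3.79 and 4.27 in WT libraries, with overlapping groups.

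The 3 genes that mark macrophages as cells had smaller differences, none of them at an unadjusted p under 0.05. Csf1r encodes the receptor for the growth factors CSF1 and IL-34, on which tissue macrophages depend. It stood at 17.5, 17.2 and 19.3 CPM in KO libraries, against 15.4, 17.3 and 16.7 CPM in WT libraries, and WT library 2 lay just above KO library 2. The log2 fold change of Csf1r was 0.13 (interval -0.06 to 0.32, SE 0.0909, edgeR adjusted p 0.615). Adgre1, which encodes the F4/80 antigen of mouse macrophages, was at 4.46, 4.24 and 4.41 CPM in KO libraries, against 3.71, 3.81 and 4.24 CPM in WT libraries. KO library 2 and WT library 3 were level to 3 digits although the groups did not overlap, and at 64 to 84 counts per library its log2 fold change of 0.16 was imprecise (interval -0.17 to 0.48, SE 0.157, edgeR adjusted p 0.743). Cd68, a glycoprotein of macrophage endosomes and lysosomes, stood at 6.32, 5.72 and 5.30 CPM in KO libraries, against 7.38, 4.41 and 5.28 CPM in WT libraries. WT library 1 was the highest of the 6 and WT library 2 the lowest. Its log2 fold change was 0.02 (interval -0.33 to 0.37, SE 0.169, edgeR adjusted p 0.974), so the data allow a level in KO from 0.793 to 1.29 times that in WT.

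The MHC class II genes had the most uniform differences, with all 4 higher in KO by 12.5% to 17.8%. Cd74 stood at 249, 264 and 271 CPM in KO libraries, against 223, 211 and 239 CPM in WT libraries, with no overlap between groups. Its means were 261 ± 11.4 CPM in KO and 225 ± 14.0 CPM in WT (SD, n = 3), with an estimated log2 fold change of 0.22 (interval 0.09 to 0.35, SE 0.0617, edgeR adjusted p 0.270). H2-Eb1, the beta chain of the I-E molecule, was at 65.6, 63.1 and 65.2 CPM in KO libraries, against 49.6, 54.3 and 60.8 CPM in WT libraries. The KO values lay close together above all WT values, and the log2 fold change was 0.24 (interval 0.10 to 0.38, SE 0.0679, edgeR adjusted p 0.270). H2-Ab1, the beta chain of I-A, was at 87.7, 87.6 and 92.5 CPM in KO libraries, against 76.2, 76.96 and 84.9 CPM in WT libraries. Again the groups did not overlap (log2 fold change 0.17, interval 0.05 to 0.29, SE 0.0571, edgeR adjusted p 0.318). H2-Aa, the alpha chain of I-A, stood at 52.3, 48.3 and 58.7 CPM in KO libraries, against 44.7, 42.4 and 51.2 CPM in WT libraries. WT library 3 exceeded KO library 2, and the log2 fold change was 0.20 (interval 0.03 to 0.37, SE 0.0800, edgeR adjusted p 0.389).

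H2-Ea, the gene for the I-E alpha chain, had 0 counts in all 6 libraries. Mice of the C57BL/6 background carry the b haplotype, in which this gene lacks its promoter and is silent, so they make H2-Eb1 RNA without surface I-E. The second E beta gene, H2-Eb2, had 0 to 3 counts and was not tested.

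The proportions among the class II genes overlapped between the genotypes. H2-Aa counts over H2-Ab1 counts were 0.596, 0.551 and 0.635 in KO libraries, against 0.586, 0.551 and 0.603 in WT libraries. Cd74 counts over the summed counts of the 3 H2 genes averaged 1.26 ± 0.0605 in KO and 1.25 ± 0.0550 in WT (SD, n = 3). Summed class II counts were 4.03, 3.87 and 4.29 times summed C1q counts in KO libraries, against 3.99, 4.42 and 3.89 times in WT libraries. The ratio of the class II to the C1q genes therefore overlapped between the genotypes, although both sums were higher in KO.

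**Figure D2:**
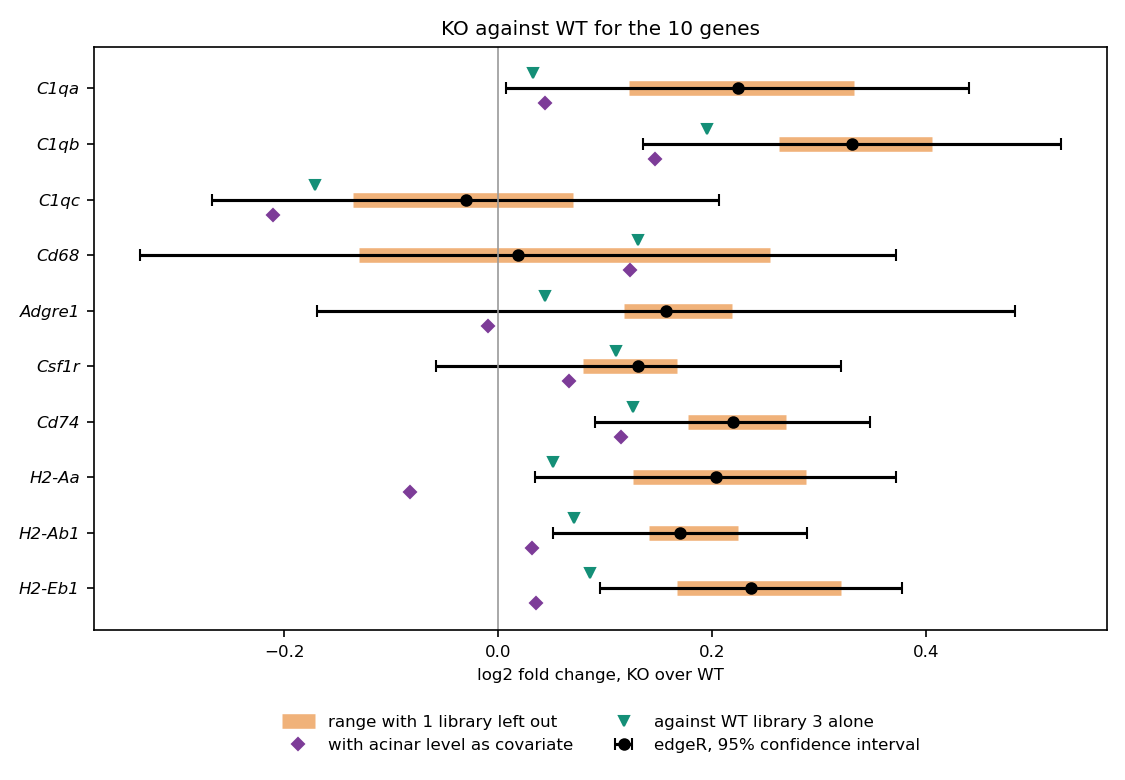
Log2 fold change of KO over WT for the 10 genes. Black points and bars give the edgeR estimate and 95% confidence interval, orange bars the range when each library is left out in turn, triangles the estimate against WT library 3 alone and diamonds the estimate with the acinar level as a covariate. Against WT library 3 alone the values lie between -0.17 and 0.20, and for the class II genes both of these estimates lie below the black point.

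Set against the WT library with the fewest acinar transcripts, 8 of the 10 genes had estimates nearer to 0, and C1qc (-0.17) and Cd68 (0.13) had estimates farther from it. Summed over the 10 genes the level was 595, 610 and 630 CPM in KO libraries 1 to 3. WT library 3 stood at 574 CPM, the highest of the WT libraries (519 CPM in library 1, 497 CPM in library 2). A fit of the KO libraries against only WT library 3 was added once the data had been seen, and takes that single library to be as variable as the KO ones. In it the median log2 fold change of the 10 genes was 0.08. Cd74 was then at 0.13, H2-Eb1 at 0.09, H2-Ab1 at 0.07 and H2-Aa at 0.05 on the log2 scale, and edgeR called 0 of the 10 (smallest adjusted p 0.999). With the acinar level (mean of log2 CPM over the list) as a covariate the median was 0.04. H2-Aa (-0.08) and Adgre1 (-0.01) then had values below 0. The acinar share moves with genotype in these libraries, and its part in the differences was not tested. Without WT library 3, edgeR called H2-Eb1 (log2 fold change 0.32, adjusted p 0.0348) and no other of the 10. Among the genes that kept their direction with each library left out, estimates moved by over 1.5 times for 3. C1qa moved to 0.12 without WT library 2 and H2-Aa to 0.13 without KO library 3. Csf1r moved to 0.079 without KO library 3 and 0.086 without WT library 1. C1qc ranged from -0.14 to 0.070 and Cd68 from -0.13 to 0.25 with each library left out, and both changed sign.

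B cells also carry MHC class II, and several of their transcripts were high in 1 WT library. Ighm, the heavy chain of IgM, had 91, 71 and 79 counts in KO libraries 1 to 3, against 1858, 63 and 90 counts in WT libraries 1 to 3. Ms4a1, which encodes CD20, had 0, 2 and 0 counts in KO libraries, against 47, 0 and 1 counts in WT libraries. Over the 5 B cell markers the summed level was 32.4 to 38.5 CPM in KO and 138, 38.3 and 47.9 CPM in WT libraries 1 to 3, most of it outside WT library 1 from Cd79a. Cd79a, a signalling chain of the B cell receptor, stood at 28.6, 28.0 and 33.61 CPM in KO libraries, against 33.64, 34.4 and 42.5 CPM in WT libraries. All KO values lay below the WT values, the highest was in WT library 3 and not in WT library 1, and the log2 fold change was -0.29 (p 0.00719, edgeR adjusted p 0.315). Leaving out WT library 1 gave log2 fold changes of 0.22 for Cd74, 0.18 for H2-Aa, 0.14 for H2-Ab1 and 0.17 for H2-Eb1, none called by edgeR. Dendritic cells are another source of class II. Of 7 dendritic cell markers 3 were tested, and the summed level of all 7 was 17.7 to 18.7 CPM in KO and 17.4 to 19.2 CPM in WT libraries. Most of that sum was Zbtb46, at 12.4, 12.7 and 12.8 CPM in KO libraries, against 11.3, 13.2 and 12.4 CPM in WT libraries. The markers not tested had at most 14 counts in any library, so the sum says little about them. The T cell list held 1 tested gene of 6, Lck, and the natural killer list 0 of 4. Of 5 neutrophil genes 1 was tested, Csf3r, and S100a8 had 0 counts in every library.

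**Figure D3:**
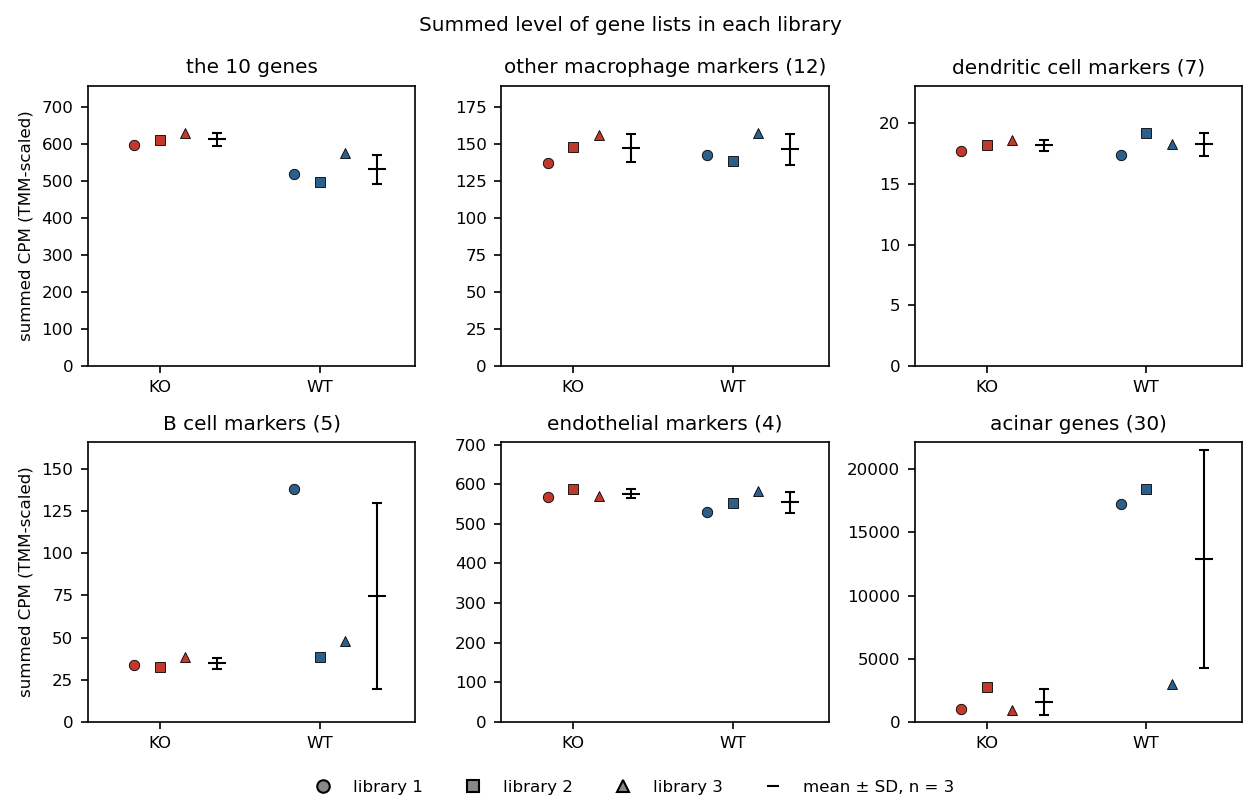
Summed CPM (TMM-scaled, y axes from 0) of 6 gene lists in each KO library (red, left) and WT library (blue, right), with mean ± SD (n = 3). The number in each title is the size of the list. The summed level of the 10 genes is higher in every KO library than in any WT library. The B cell markers reach 138 CPM in WT library 1, and the acinar genes 17259 and 18436 CPM in WT libraries 1 and 2.

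Per length of transcript Cd74 stood highest and Adgre1 lowest. Over all 6 libraries the mean level, in CPM per kilobase of exon, was 145 for Cd74, 72.9 for C1qa, 32.8 for H2-Ab1, 30.7 for H2-Eb1, 17.7 for C1qb, 13.1 for H2-Aa, 6.33 for C1qc, 4.56 for Cd68, 2.99 for Csf1r and 1.28 for Adgre1. The ranges over the 6 libraries overlapped for 3 neighbouring pairs in that order, H2-Ab1 with H2-Eb1, C1qb with H2-Aa, and C1qc with Cd68. The other 6 neighbouring pairs did not overlap. On this scale C1qa stood at 78.6 ± 4.93 in KO and 67.2 ± 9.80 in WT, and C1qc at 6.27 ± 0.887 in KO and 6.39 ± 0.574 in WT (CPM per kilobase, SD, n = 3). In every library the order of the C1q chains per length was C1qa, C1qb, C1qc. Exon lengths are unions over GENCODE M21 transcripts, and the annotation the authors counted against may give others.

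**Figure D4:**
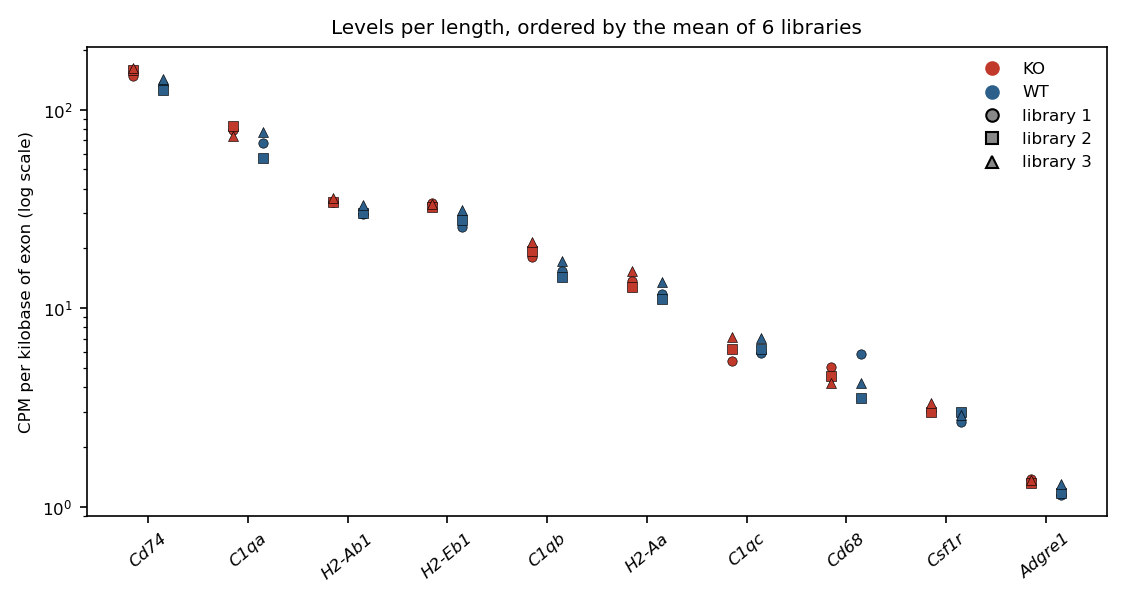
CPM per kilobase of exon on a log axis for each gene, ordered by the mean of the 6 libraries, with KO libraries in red (left of each pair) and WT libraries in blue. Cd74 and C1qa stand highest, Csf1r and Adgre1 lowest, and the range across the 10 genes is far wider than the distance between genotypes.

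Other macrophage markers had values in both directions. All 12 were tested: 7 had higher and 5 lower values in KO, their median log2 fold change was 0.04, and edgeR called 0. At an unadjusted edgeR p under 0.05, 3 were higher, against 5.19% of all genes, and 0 were lower, against 5.80%. All KO libraries lay above all WT libraries for 4 of the 12, against 8.02% of all genes, and below them for 0, against 7.69%. Laptm5, a lysosomal protein of blood cells, stood at 21.7, 22.1 and 22.4 CPM in KO libraries, against 19.05, 17.9 and 19.6 CPM in WT libraries (log2 fold change 0.23, SE 0.0819, edgeR adjusted p 0.348). Tyrobp, the adaptor DAP12, was at 3.66 ± 0.534 CPM in KO and 2.49 ± 0.613 CPM in WT (SD, n = 3; log2 fold change 0.56, SE 0.207, edgeR adjusted p 0.355). Ptprc, which encodes CD45 on all white blood cells, was at 9.11 ± 0.507 CPM in KO and 8.89 ± 1.26 CPM in WT (SD, n = 3), a log2 fold change of 0.03 (interval -0.22 to 0.28, edgeR adjusted p 0.946).

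The growth factors that maintain macrophages had differences smaller than the spread among libraries. Csf1, the main ligand of Csf1r, stood at 33.1, 29.4 and 32.4 CPM in KO libraries, against 32.7, 31.9 and 32.4 CPM in WT libraries (log2 fold change -0.03, interval -0.18 to 0.12). Il34, the other ligand, was at 1.70, 2.06 and 2.06 CPM in KO libraries, against 1.65, 2.80 and 1.49 CPM in WT libraries (log2 fold change -0.02, SE 0.256). Csf2ra, a receptor subunit for GM-CSF, had a log2 fold change of 0.12 (edgeR adjusted p 0.605). Irf8, a transcription factor of monocytes and dendritic cells, was at 3.77, 3.55 and 4.53 CPM in KO libraries, against 5.04, 5.48 and 5.23 CPM in WT libraries. All KO values of Irf8 lay below the WT values, and the estimated log2 difference was -0.41 (SE 0.156, edgeR adjusted p 0.370). In this list of 9 tested genes 3 had higher and 6 lower values, and edgeR called 0.

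Genes that act on MHC class II molecules or switch their genes on had values in both directions. Of 8 tested genes for peptide loading and degradation, 4 had higher and 4 lower values, with a median of -0.03 and 0 called by edgeR. Ctss, the cathepsin that trims the invariant chain, stood at 43.0, 43.3 and 41.2 CPM in KO libraries, against 36.6, 37.8 and 40.5 CPM in WT libraries (log2 fold change 0.15, SE 0.0653, edgeR adjusted p 0.415). Lgmn, the asparagine endopeptidase, had a log2 fold change of 0.14 (edgeR adjusted p 0.475). H2-DMb2, a chain of the peptide editor, had 4, 10 and 2 counts in KO libraries and 20, 5 and 11 counts in WT libraries, highest in WT library 1 with its B cell transcripts (log2 fold change -1.13, edgeR adjusted p 0.465). Ciita was at 3.77, 3.49 and 3.83 CPM in KO libraries, against 4.35, 3.34 and 4.07 CPM in WT libraries (log2 fold change -0.09, interval -0.44 to 0.26, edgeR adjusted p 0.885). With Ciita, the 8 transcription genes, all tested, divided into 3 with higher and 5 with lower values. Creb1 (log2 fold change -0.13, edgeR adjusted p 0.406) and Rfx5 (-0.07, edgeR adjusted p 0.688), which bind the X box, were among the lower ones.

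The remaining complement and macrophage lists had medians below 0 and 0 genes called by edgeR. Of 10 tested genes of the classical pathway and its regulators, 3 had higher and 7 lower values (median -0.16). Cd59a, an inhibitor of the membrane attack complex, had a log2 fold change of 0.32 (edgeR adjusted p 0.354). C1s1, the protease that pairs with C1q, was at -0.01 and Serping1, the C1 inhibitor, at -0.09. C3 had 47, 69 and 83 counts in KO libraries and 474, 110 and 88 counts in WT libraries, the highest again in WT library 1. Of 9 tested genes of resident macrophages 4 were higher and 5 lower (median -0.11). Among them Trem2, a lipid receptor, was at 1.06, 1.32 and 1.53 CPM in KO libraries, against 0.955, 0.417 and 0.715 CPM in WT libraries (log2 fold change 0.88, SE 0.332, edgeR adjusted p 0.368). Mrc1, the mannose receptor CD206, had a log2 fold change of -0.39 (edgeR adjusted p 0.517), Lyve1 of -0.15 and Gas6 of 0.01. Of 8 tested monocyte and inflammation genes 3 were higher and 5 lower (median -0.10), with Cd14 at a log2 fold change of -0.43 (edgeR adjusted p 0.404), Itgax, the CD11c gene, at 0.26 (0.472) and Tlr2 at 0.07. Of 11 tested phagocytosis genes 5 were higher and 6 lower (median -0.05). They included the Fc receptor gene Fcgr3 at a log2 fold change of 0.43 (edgeR adjusted p 0.351), the scavenger receptor gene Cd36 at -0.46 (0.388), Lamp1 at 0.05 and Lamp2 at -0.05.

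**Figure D5:**
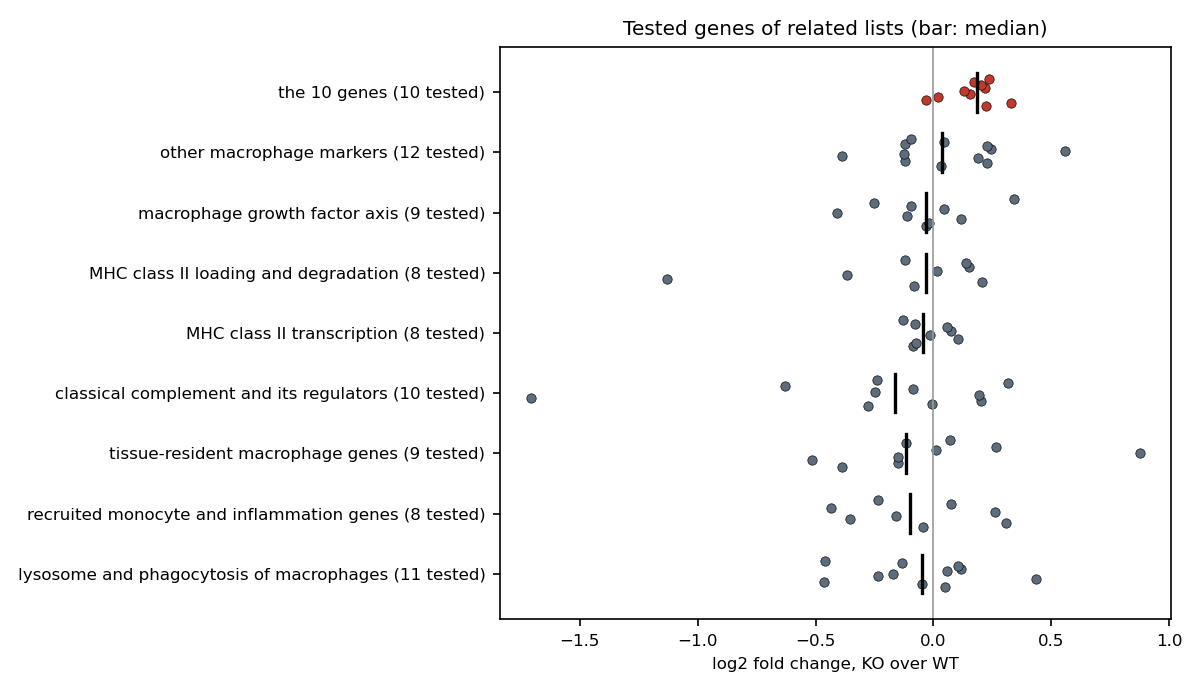
Log2 fold change of KO over WT for each tested gene of the 10 (red) and of 8 related lists (grey), with a bar at the median. The 10 genes have a median of 0.19 and the medians of the other lists lie between -0.16 and 0.04. Some genes stand in 2 lists.

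Markers of the islet vasculature and beta cells give the scale of other compartments. All 4 endothelial genes had log2 fold changes between 0.01 and 0.12, with Kdr at 0.06, Pecam1 at 0.01 and Emcn at 0.12 (edgeR adjusted p 0.450). On the same log2 scale the insulin gene Ins2 was at 0.33 (edgeR adjusted p 0.211, DESeq2 adjusted p 6.07e-06) and Ins1 at -0.53 (adjusted p 0.439). Clec9a, Zbtb46 and Siglech, the tested dendritic cell markers, were at 0.03, 0.04 and 0.18. Of the acinar genes, all 25 tested had lower values in KO: Ctrb1 was at -2.84, Pnlip at -3.19, Clps at -2.88 and Try4 at -3.26, none called by edgeR. Of these 25 genes 22 had an unadjusted p under 0.05, against 5.80% of all genes lower in KO, and DESeq2 called 15. Some of the 25, Try4 among them, were given no adjusted p by DESeq2.

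Over the 6 libraries the class II genes followed each other, with Pearson r of log2 CPM from 0.805 to 0.949 for their 6 pairs. The 3 pairs of C1q genes ranged from 0.00632 to 0.736, and the 3 pairs among Cd68, Adgre1 and Csf1r from -0.519 to 0.701. These are descriptions with n = 6 that include the difference between genotypes and the shared acinar share. Among 12500 other genes, leaving out symbols that are clone or locus numbers, those most like the mean of the class II genes were Ercc5 (r 0.997), Dhrs13 (0.994), Ppia (0.992), Ndufb8 (0.991) and Cyp20a1 (0.988). Those most like the mean of the C1q genes were Osgep (r 0.995), Stpg1 (0.991), Daxx (0.989), Bend5 (0.989) and Ftl1 (0.989).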

How the data were processed

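Islet RNA was sequenced in 6 libraries, 3 KO and 3 WT. Per the labels' protocols, 500 ng of total RNA went into a strand-specific preparation. Trimmomatic 0.39, STAR 2.7.10b, featureCounts 2.0.3 and build mm10 are named, without role or order, in the submitters' processing notes. Neither annotation nor strand setting is given in the sources used. The authors deposited raw counts per gene by symbol. KO columns are numbered 1 to 3 and KO titles 4 to 6, so library numbers are column numbers. The titles share no number between groups, and nothing says that column numbers pair samples. Deviations of log2 CPM from the group means correlated at 0.182, 0.166 and 0.191 for same-numbered KO and WT columns (13637 genes). For other pairs of columns the values were -0.235 to 0.0581. Deviations sum to 0 within each group, so these values are not independent, and higher ones for some pairs lower the others. They do not show that columns are paired, and a fit with the number as a block was added as an alternative.

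Genes were kept by filterByExpr (minimum count 10, minimum total 15), scaled by TMM and tested over all 16240 genes kept with edgeR 4.0.16 (glmQLFit, robust; glmQLFTest, two-sided; Benjamini-Hochberg, threshold 0.05) in R 4.3.3. Library sizes for CPM were TMM-scaled, with a prior count of 2 for log2 CPM. The SE is the log2 fold change divided by the square root of F, and intervals are 95%. DESeq2 1.42.0, limma 3.58.1 (voom) and other scalings, filters, a covariate and leaving out libraries were alternatives. The edgeR script was tested on simulated data. Replicates differed by more than sampling noise (chi-square per degree of freedom at least 4.51).

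The genes and lists were chosen with earlier results of these data known. Beside the 10 genes, Igf2r, Csf1, Il34, Ptprc, Ciita and H2-Ea, the text takes from each list up to 4 called genes. Where none was called it takes the 2 with the highest CPM and the 2 with the smallest p, and it takes 5 genes most like each pattern (mean log2 CPM of at least 1). Some genes that this rule takes are not reported here. Ms4a1, Cd79b, Cd3e, Marco, C3, H2-Eb2, S100a8, Hmgxb3 and Mir5107 were named after their values or positions were seen.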

Additional observations from a re-analysis of the deposited data

How the results depend on the processing

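The count of all genes called moved from 2 to 66 with DESeq2, 1 with limma-voom, 272 without a low-count filter, 1 without robust estimation and 0 with the acinar covariate, and ranged from 0 to 114 with each library left out (0 without KO library 1 or KO library 2, 24 without KO library 3, 1 without WT library 1 and 114 without WT library 3). Of the 10 genes, DESeq2 gave an adjusted p only to C1qa, Cd74 and H2-Ab1 and called 1 (Cd74). The unfiltered fit called 3 (C1qa, C1qb and H2-Eb1, edgeR adjusted p 0.0211, 0.0336 and 0.0204). With each library left out edgeR called 0 to 1. The median log2 fold change of the 10 genes was 0.19, from 0.15 to 0.25 with each library left out and 0.039 with the acinar covariate, where Adgre1 (-0.0095) and H2-Aa (-0.083) reversed. The cause was not tested. C1qc ranged from -0.14 to 0.070 and Cd68 from -0.13 to 0.25 with each library left out, and both changed sign. The other 8 genes kept their direction in each leave-one-out fit. The 3 other scalings changed no call among the 10, and scaling by library size moved their CPM by at most 1.79%. With the column number as a replicate block, chosen after seeing the data, edgeR called 30 genes and 0 of the 10, with a median of 0.19. At 64 to 84 counts per library, Adgre1 is limited by counting error of about 11.6%.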

Other observations

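WT library 1 held other immune transcripts besides Ighm and Ms4a1. Cd79b, the signalling partner of the B cell receptor, had 1, 2 and 4 counts in KO libraries 1 to 3, against 23, 3 and 5 counts in WT libraries 1 to 3. Marco, a scavenger receptor of some macrophages, had 0 counts in the 3 KO libraries, against 15, 0 and 0 counts in WT libraries. Cd3e, of the T cell receptor complex, had 6, 1 and 1 counts in KO libraries, against 19, 0 and 5 counts in WT libraries. In the same library C1qa, Cd74 and H2-Eb1 were not the highest of the WT values, while Cd68 was the highest of all 6 libraries. These values were singled out after they were seen, and no test was made of them.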
